A study of Mus musculus with 3 samples.

Results

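The granular layer is the last living layer of the interfollicular epidermis, and its cells were chosen by the measured UMI shares of 4 keratinocyte genes. A cell was counted when loricrin (Lor) made up at least 0.1% of its UMIs (unique molecular identifiers, one per captured transcript), Krt1 and Krt10 together at least 0.1%, and Krt79, a keratin of the upper hair follicle, under 0.05%. The rule found 457 of 8851 kept cells, and these are called Lor+ cells below. They were set beside 521 cells called spinous, after the layer beneath, which had at least 0.5% Krt1 and Krt10 and under 0.1% Lor. The Krt79 limit was not applied to the spinous cells. Transcripts of back skin cells of wild-type, untreated mice were counted by droplet sequencing with 10x 3′ version 3 chemistry, in 1 library each at P38 (male), 6 months (female) and 12 months (male). The study's methods describe K14-H2BGFP mice, which carry a GFP-tagged histone under a basal keratinocyte promoter, and a sort to a fixed ratio of epidermal to follicle cells, while the submitters' labels name no sort. The paper also gives the hair cycle stage. It was catagen at P38, mostly the growth phase (anagen) at 6 months, and mixed rest (telogen) and anagen at 12 months. With 1 library per age, animal, sex, hair cycle stage, sort and age cannot be told apart, and intervals below cover counting error only.

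Epidermal keratinocytes divide in the basal layer on Krt5 and Krt14, switch to Krt1 and Krt10 in the spinous layer, and load keratohyalin granules and lamellar bodies in the granular layer before they lose their nucleus. Loricrin is the main protein of the cornified envelope, the crosslinked shell that replaces the plasma membrane. Profilaggrin and its relatives fill the keratohyalin granules, lamellar bodies deliver lipids and proteases to the space between cells, and the suprabasin, dermokine and keratinocyte differentiation-associated protein genes (Sbsn, Dmkn, Krtdap) form a cluster of secreted products of the upper layers.

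The kept cells numbered 2109 at P38, 3502 at 6 months and 3240 at 12 months, from libraries of 40509290 to 48887123 UMIs. The study, with the same limits, reports the same number at P38, slightly fewer cells at 12 months and far fewer at 6 months. The 6 months counts and shares below therefore describe the barcodes kept here and not the study's own set of cells. The 6 months library stood apart in depth, with a median of 1019 UMIs per kept cell and 1839 kept cells under 1000 genes, against medians of 16170 UMIs at P38 and 11439 UMIs at 12 months. The libraries of 6 and 12 months shared 136 cell barcodes, 81 of them kept in both, while P38 shared 5 barcodes with 6 months and 2 with 12 months. Of the 12 Lor+ cells at 12 months, 8 carried a barcode that the 6 months library also held. In that library 4 of these 8 barcodes held 82008, 94319, 115904 and 165222 UMIs, with 168, 528, 452 and 4640 Lor UMIs, against 582, 644, 801 and 1146 UMIs with 1, 1, 3 and 34 Lor UMIs at 12 months. The 8 cells together held 5 UMIs of the female transcript Xist and 0 of the Y-linked genes Ddx3y and Eif2s3y, in a library labelled male, whereas the other 4 Lor+ cells at 12 months held 0 Xist and 7 Y-linked UMIs. Results are therefore also given without the shared barcodes.

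The Lor+ cells were unevenly spread, with 1 at P38 (0.0474% of kept cells, exact binomial 95% interval 0.00120% to 0.264%), 444 at 6 months (12.7%, 11.6% to 13.8%) and 12 at 12 months (0.370%, 0.192% to 0.646%). Without shared barcodes the counts were 1, 440 and 4. Their depth fell into separate ranges. Only 12 of the 457 had 10000 UMIs or more, a limit set after the depths were seen, namely 1 at P38, 8 at 6 months and 3 at 12 months, and none of these 12 had a shared barcode. No Lor+ cell of 6 months lay between 2823 and 19383 UMIs. Among the 436 cells under 10000 UMIs at 6 months, with a median of 546 UMIs, 214 held 1 Lor UMI and 131 held 2, and 1 UMI is enough to pass 0.1% in a cell of 1000 UMIs or fewer. At the edge of the rule, the lowest Lor shares inside were 0.106%, 0.109% and 0.117% at 6 months, and the highest just outside, in cells that met the rule's other limits, were 0.0936%, 0.0284% and 0.0272%.

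**Figure D1:**
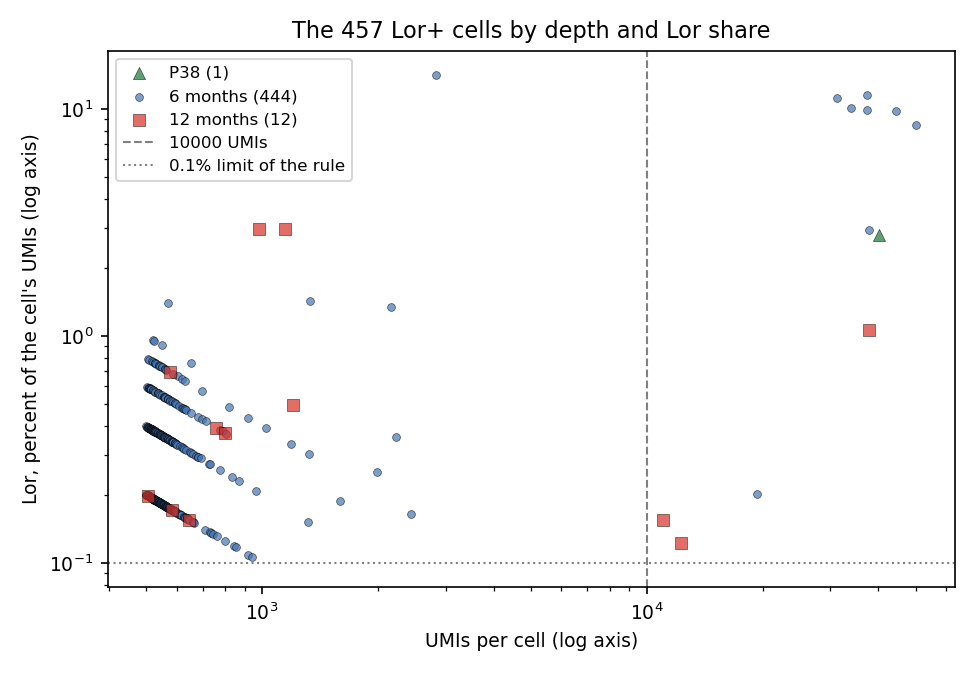
Lor as a percent of a cell's UMIs (vertical log axis) against the UMIs of the cell (horizontal log axis) for all 457 Lor+ cells, 1 point per cell. The slanted rows at the lower left are cells with 1, 2, 3 or 4 Lor UMIs, and 12 cells lie right of the dashed line at 10000 UMIs.

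The label granular was set beside its 5 markers, and the shallower Lor+ cells at 6 months, the largest group, went against it. Lor and Krt10 are also genes of the rule, so the marker sums were partly fixed by how both classes were chosen. Sums over Sbsn, Calm4 and Krtdap alone were not taken. Krtdap, outside the rule, stood at 2810 CPM in the Lor+ cells under 1000 genes at 6 months, against 6551 CPM in spinous cells. Summed over Lor, Krt10, Sbsn, Calm4 and Krtdap, the deep cells held 136531 CPM (a gene's share of the UMIs of the cell or class, on the usual CPM scale) at P38, 177434 CPM at 6 months and 83188 CPM at 12 months. Spinous cells held 25412, 22830 and 26393 CPM. The shallower Lor+ cells at 6 months held 14761 CPM, below the spinous cells, and other kept cells under 1000 genes in that library held 6261 CPM. Basal keratinocyte markers (Krt5, Krt14, Krt15, Col17a1, Itgb4) ran the other way, with 274, 110 and 229 CPM in the deep cells, 10733 CPM in the shallower Lor+ cells at 6 months and 7368, 6113 and 5878 CPM in spinous cells. The 9 shallower Lor+ cells at 12 months, 8 of them with a shared barcode, held 77212 CPM of the granular markers on 556 UMIs, and 972 CPM of the basal markers on 7 UMIs. The sum of 4 upper hair follicle markers (Krt79, Defb6, Krt17, Klk10) stood at 7234, 3150 and 19850 CPM in the deep cells. In spinous cells it stood at 2874, 2040 and 2867 CPM. The single markers did not all go this way. At P38 Klk10 held 0 UMIs and Defb6 24.9 CPM, against 7.70 and 1108 CPM in spinous cells. Krt79 held 0 UMIs at P38 against 1083 CPM. The rule limits Krt79 in Lor+ cells and not in spinous cells, so its part in these values was set in advance. At 12 months 754 Klk10 and 367 Defb6 UMIs of the 1211 lay in 1 cell. The part of these markers in the results was not tested. The deep cells are described first, and the sums over all Lor+ cells after them.

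Of the 12 deep cells 10 shared a high level of Sbsn, and Krtdap was more variable. Krtdap stood at 55506 CPM in the P38 cell. It ranged over 18315 to 58750.5 CPM in the 8 cells of 6 months, and reached 57989.5, 14962 and 7675 CPM in the 3 cells of 12 months. Sbsn, a secreted protein of the cornifying layers, stood at 25246 CPM at P38, at 26260.1 to 38313 CPM at 6 months and at 29286, 5078 and 5879 CPM at 12 months. The 2 lowest cells for Sbsn were both of 12 months, and the other 10 lay close together. Cell 3 of 12 months was also the lowest for Krtdap, below the 9501 CPM of the spinous cells of its library. Calm4, a calmodulin-like protein of differentiating keratinocytes, stood at 11924 CPM at P38, between 6100.2 and 9673 CPM at 6 months and at 10601, 3536 and 0 CPM at 12 months.

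Levels of keratohyalin and envelope genes varied among the deep cells. In 6 cells of 6 months Lor made up 8.53% to 11.5% of UMIs, and the other 6 deep cells held 0.122% to 2.94%. The levels given for this split are a description only, because Lor chose the cells, and since all 6 cells with the high Lor share came from the 6 months library, the split and the library cannot be told apart. How many of all genes have ranges that lie apart between these groups of cells was not counted. Flg, which encodes profilaggrin, stood at 2911 to 9791 CPM in the 6 high-Lor cells and at 0 to 1197 CPM in the other 6. Flg2, the related filaggrin-2, stood at 5921 to 17935 CPM and at 0 to 5056 CPM in the same order. Krt10 was lower where Lor was high, at 1854 to 4879 CPM in the high-Lor cells and 3674 to 29459 CPM in the others, with overlap through cell 3 of 12 months. Krt23, a keratin known from terminally differentiating epithelia, reached 2654 to 4795 CPM in the high-Lor cells and 0 to 998 CPM in the others. Lce1m, a late cornified envelope gene, varied widely within the high-Lor cells, at 13512, 11733, 1150.1, 26.8, 23658 and 877 CPM. Krt1 was nearly absent from the deep cells, with 0 to 544 CPM and at least 1 UMI in 5 of 12, so the Krt1 and Krt10 share of the rule was met by Krt10.

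Both remaining deep cells of 12 months differed from this pattern. Cell 2 held 17 Lor UMIs among 11028, 0 UMIs of Flg, Flg2, Hrnr, Cnfn and Asprv1, and 16594 CPM of Krt10. Cell 3 held 15 Lor UMIs among 12247 and 0 UMIs of Calm4, Hrnr, Cnfn and Serpina12. Its leading gene was Cst6, an inhibitor of cysteine proteases, at 349800 CPM against 5354 and 363 CPM in the other 2. It also held 61566 CPM of the kallikrein gene Klk10 and 29966 CPM of the defensin gene Defb6, which are listed here as upper hair follicle markers, while Klk10 was at 0 UMIs in 10 of the other 11 deep cells. The name granular does not rest on these 2 cells.

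**Figure D2:**
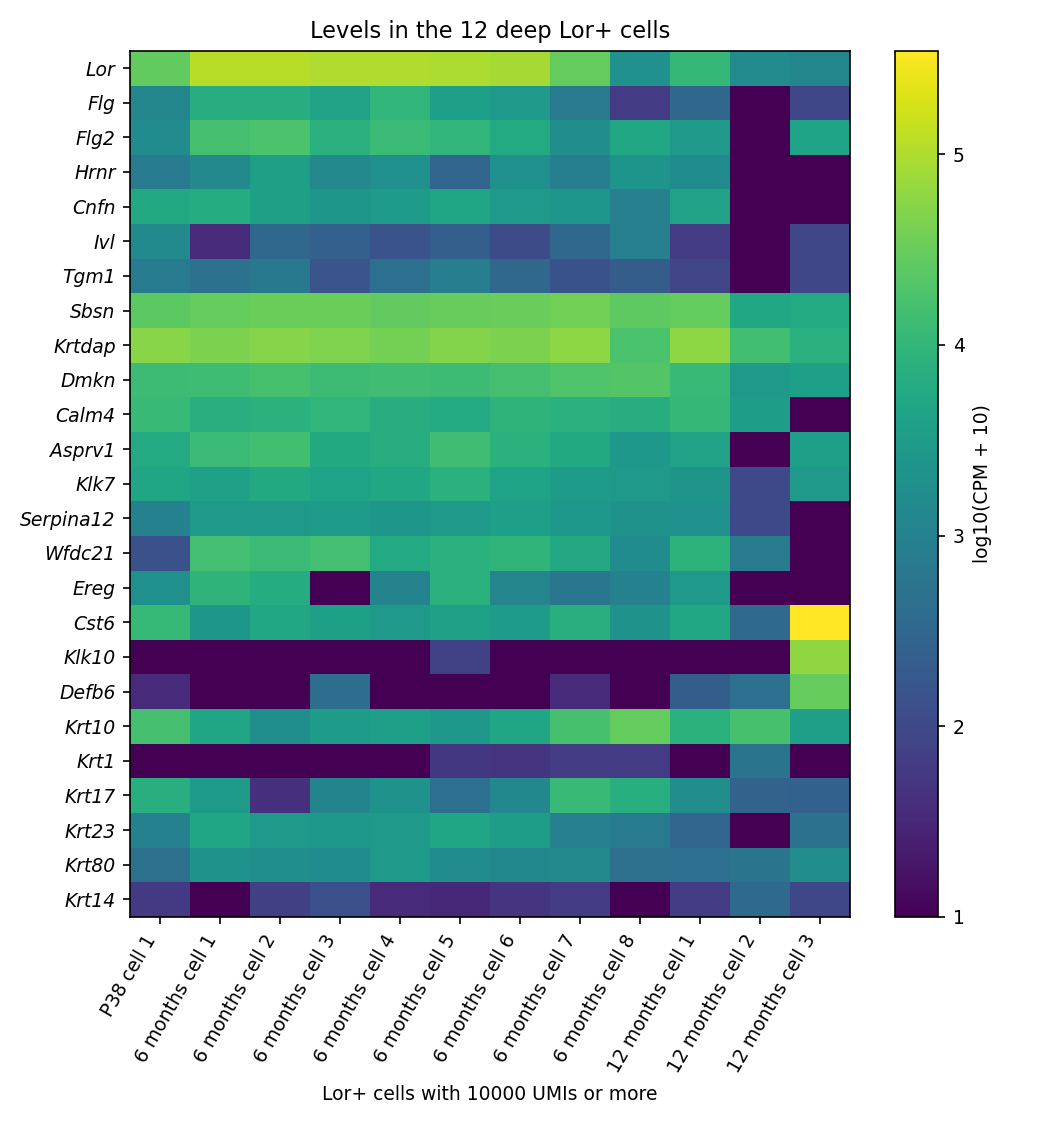
Levels of 25 genes (rows) in the 12 Lor+ cells with 10000 UMIs or more (columns), as log10 of CPM plus 10, from dark (0 CPM) to yellow. Cells 1 to 6 of 6 months have the highest Lor, Flg and Flg2, and cells 2 and 3 of 12 months lack several genes that the other 10 share.

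Late epidermal genes sit in clusters in the mouse genome. By GENCODE vM21 on GRCm38, Lor lies on chromosome 3 at 92080271 to 92083142 (minus strand), near Flg2 at 93197278 to 93221391 and Hrnr at 93319749 to 93333570 (plus strand), in the epidermal differentiation complex. Sbsn lies on chromosome 7 at 30751471 to 30756134, followed by Dmkn at 30763756 to 30781063 and Krtdap at 30787896 to 30791097, all on the plus strand. The 250 bases before the RefSeq start of 4 of these genes (GRCm38.p6) are shown, 2 from each cluster. They are shown because all 4 were high in most deep cells and each holds a match to TGANTCA, searched on both strands. TGANTCA is looser than the AP-1 consensus, since N stands for any base. Capitals mark TGANTCA matches and any TATAAA.
Lor, chr3:92083143-92083392, minus strand: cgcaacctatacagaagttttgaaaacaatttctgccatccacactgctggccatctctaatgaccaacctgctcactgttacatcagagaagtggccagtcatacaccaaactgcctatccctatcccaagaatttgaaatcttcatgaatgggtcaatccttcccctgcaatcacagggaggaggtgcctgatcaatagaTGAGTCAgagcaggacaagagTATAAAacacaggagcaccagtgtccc
Flg2, chr3:93197023-93197272, plus strand: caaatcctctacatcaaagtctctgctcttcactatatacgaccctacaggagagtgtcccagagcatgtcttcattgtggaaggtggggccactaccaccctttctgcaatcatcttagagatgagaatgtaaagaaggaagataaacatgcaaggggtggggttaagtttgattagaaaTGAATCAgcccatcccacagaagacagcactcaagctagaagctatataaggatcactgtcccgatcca
Sbsn, chr7:30751221-30751470, plus strand: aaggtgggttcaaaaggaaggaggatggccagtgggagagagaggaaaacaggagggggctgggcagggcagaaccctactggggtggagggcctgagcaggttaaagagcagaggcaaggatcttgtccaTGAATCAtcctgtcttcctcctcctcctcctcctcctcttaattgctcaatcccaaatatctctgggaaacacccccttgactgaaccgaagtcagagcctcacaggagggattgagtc
Krtdap, chr7:30787655-30787904, plus strand: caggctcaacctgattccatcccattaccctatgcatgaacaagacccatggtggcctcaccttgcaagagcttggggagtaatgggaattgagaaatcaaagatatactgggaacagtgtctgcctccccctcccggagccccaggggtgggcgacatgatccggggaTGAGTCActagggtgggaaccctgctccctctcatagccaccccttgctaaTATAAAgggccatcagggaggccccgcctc
The match began 48 bases before the start of Lor, 69 before that of Flg2, 119 before that of Sbsn and 81 before that of Krtdap. It read TGAGTCA at Lor and Krtdap and TGAATCA at Flg2 and Sbsn. Lor and Krtdap also held TATAAA. Of 12 windows examined the one of Flg also held a match to TGANTCA, and those of Hrnr, Calm4, Cnfn, Serpina12, Krt10, Klk7 and Krt23 held none. Over all 32851 promoter windows 6.75% held one, and among genes measured in the comparison with spinous cells below it was 5.47% of 6713, against 25 of the 134 higher genes that have a window (18.7%). A match in these letters is a description of the sequence, and binding was not measured.

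The Lor+ cells of each library were then summed and set over the spinous cells of the same library, to ask which genes go with Lor within the suprabasal layers. The rule chose both classes, so the ratios describe them and were not tested, and 3 libraries could not give a sign-flip p below 0.25. Of 8388 genes with at least 10 UMIs in both classes together in every library, leaving out the genes of the rule, 437 were at least 2-fold higher in Lor+ cells in 3 of 3 libraries (5.21%) and 213 at least 2-fold lower (2.54%). Since the P38 sum is 1 cell of 40086 UMIs against 3248615 in spinous cells, the stricter count used below also asked that the exact 95% counting interval of each ratio leave out 0. It held 187 higher (2.23%) and 84 lower genes (1%). With TMM factors in place of total UMIs, which moved all ratios by -0.43, -0.09 and -0.26 (log2) at P38, 6 and 12 months, it held 144 higher and 157 lower, so that the higher genes were 47.8% of calls and not 69.0%. The median log2 ratio of all 8388 genes was 0.15, -0.04 and 0.04 in the 3 libraries. A gene near absent from spinous cells could reach 10 UMIs only by being high in Lor+ cells. Counts of higher genes, in all and per list, are therefore raised by the filter. In the 6 months sum 52.9% of UMIs came from the 8 deep cells, and at 12 months 89.4% from the 3 deep cells, so the 6 months levels below mix both kinds of cell.

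Several structural genes of the envelope were higher in Lor+ cells. Of 54 cornified envelope genes 53 were in the files and 17 were measured, among them 9 higher and 0 lower (median log2 ratio 3.55, mean over libraries). Some passed the UMI filter only through Lor+ cells, which raises this share. At P38 Hrnr held 28 UMIs against 1 in spinous cells, and Flg2 62 against 3. Flg2 stood at 1547, 5144 and 2316 CPM in Lor+ cells at P38, 6 and 12 months, against 0.923, 13.2 and 7.66 CPM in spinous cells. Hrnr, encoding the filaggrin relative hornerin, stood at 698, 879.6 and 924 CPM against 0.308, 1.55 and 5.47 CPM. Both genes were near absent from spinous cells in every library, with log2 ratios of 10.50, 8.56 and 8.22 for Flg2 and 10.59, 8.82 and 7.38 for Hrnr. Flg itself stood at 1197, 2468 and 264 CPM in Lor+ cells and 0.616, 120.4 and 28.7 CPM in spinous cells (log2 ratios 10.62, 4.35 and 3.24). Cnfn, the envelope protein cornifelin, stood at 5688, 1986 and 2404 CPM against 1.54, 40.4 and 11.4 CPM. Involucrin (Ivl), an early scaffold of the envelope, had 1497, 145 and 73.3 CPM in Lor+ cells and 22.2, 58.3 and 8.32 CPM in spinous cells, so its ratio was far larger at P38 (6.08) than at 6 months (1.32). Tgm1, the membrane transglutaminase that crosslinks envelope proteins, had 748, 243 and 73.3 CPM and 8.93, 15.5 and 5.04 CPM. The remaining higher genes were Csta1, Kprp and Lce6a. Sprr1a and Sprr1b, small proline-rich envelope proteins, did not meet the count, with log2 ratios of 1.81, -0.02 and 3.18 and 1.40, -1.36 and 1.89. Late cornified envelope genes share sequence with near copies, so their counts are uncertain.

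The 3 genes of the secreted cluster were all higher. The log2 ratio averaged 2.85 ± 0.35 for Sbsn, 2.30 ± 0.56 for Krtdap and 1.71 ± 0.35 for Dmkn (SD, n = 3 libraries). Sbsn stood at 25246, 18107 and 20042 CPM in Lor+ cells, against 2681, 3083 and 2944 CPM in spinous cells. Krtdap was the most abundant of the 3, at 55506, 25708 and 37225 CPM against 7221, 6551 and 9501 CPM. Calm4 stood at 11924, 4659 and 6935 CPM against 2687, 2010.3 and 2356 CPM, the smallest ratio of the marker genes outside the rule (1.64 ± 0.47). When each cell had equal weight, the mean log2 ratio was 1.86 for Sbsn, 0.88 for Krtdap and 0.71 for Calm4, so that Krtdap and Calm4 came under 2-fold. Krt10, which both classes needed, stood at 15891, 5229 and 10805 CPM and 12802, 11159.5 and 11567 CPM.

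Proteases and their inhibitors, which govern the shedding of cornified cells, made up the list with the most higher genes. Of 24 measured 14 were higher and 0 lower (median log2 ratio 3.35). The UMI filter raises this share too, since Serpina12 passed it at P38 only through the Lor+ cell. Klk7, a kallikrein that cleaves corneodesmosomes, stood at 4590.1, 2837 and 1906 CPM in Lor+ cells, against 284, 294 and 88.0 CPM in spinous cells, a log2 ratio of 3.91 ± 0.59. Klk5, which activates Klk7, had 998, 528 and 367 CPM against 24.0, 71.5 and 41.2 CPM. Spink5, whose product LEKTI inhibits kallikreins, had 6461, 3475 and 6949 CPM against 368, 409 and 332 CPM (3.87 ± 0.69). Serpina12, the serpin vaspin and an inhibitor of Klk7, held 39, 858 and 80 UMIs in Lor+ cells and 1, 0 and 19 in spinous cells. At 6 months, where spinous cells held none, it was about 668-fold above a floor of 3 UMIs for that library. The counting interval of its log2 ratio there began at 9.08. Wfdc21, a small secreted protein with a protease inhibitor fold, had 5, 2899 and 341 UMIs in Lor+ cells, against 5, 3 and 35 in spinous cells (log2 ratios 6.34, 10.92 and 9.33). Protease genes of the lysosome were also higher, Ctsl at 3.98 ± 1.06, Ctsd at 1.68 ± 0.59 and Ctsb at 1.71 ± 0.35 (mean log2 ratio ± SD, n = 3). Cst6 rested on 1 cell at 12 months, which held 4284 of the 4501 UMIs, and its log2 ratio there was 5.19 with that cell and 1.11 without it. That cell also held 44 of the 44 Klk6 UMIs at 12 months.

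Profilaggrin processing and lipid synthesis genes were higher in part. Of 8 measured processing genes 4 were higher and 0 lower. Asprv1, the aspartic protease that cuts profilaggrin, had 6012, 5216 and 3006 CPM in Lor+ cells and 632, 776 and 108 CPM in spinous cells. Hal, histidase, which turns filaggrin's histidine into urocanate, had a log2 ratio of 3.84 ± 0.40, Blmh, which breaks filaggrin down to amino acids, 1.96 ± 0.34, and Pcsk6, 3.58 ± 0.56. Of 26 measured barrier lipid genes 6 were higher and 0 lower (median 1.23). Elovl1, an elongase of very long fatty acids, stood at 1347, 1295 and 938 CPM against 123, 131 and 90.4 CPM, a log2 ratio of 3.38 ± 0.08. Alox12b, the lipoxygenase that oxidises barrier ceramides, had 12, 153 and 3 UMIs in Lor+ cells, against 19, 2 and 7 in spinous cells. Smpd1, the acid sphingomyelinase, averaged 3.77 ± 0.42, the ceramide synthase Cers3 2.56 ± 0.83, the triglyceride enzyme Dgat2 2.40 ± 0.16 and the glucosylceramide synthase Ugcg 2.23 ± 0.60.

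Junction and keratin genes differed in both directions. Cdsn, encoding corneodesmosin of the corneodesmosome, was higher at 1871, 978 and 2698 CPM against 19.7, 58.3 and 17.5 CPM, although 132 of its 184 UMIs at 12 months came from cell 3. Dsc3, a desmocollin of the lower layers, stood at 24.9, 192 and 219.9 CPM in Lor+ cells, against 893, 865 and 915 CPM in spinous cells. These were the only 2 of 12 measured desmosome genes called. Of 12 tight junction genes 3 were higher, Cldn23 (6.99 ± 1.34), the linker Cgn (3.32 ± 0.68) and the scaffold Tjp3 (1.87 ± 0.58). Of 5 gap junction genes none met the count, which says little beside 2.23% higher and 1% lower over all genes. Among 10 measured keratins outside the rule, Krt23 and Krt80 were higher, at 998, 1705 and 264 CPM against 6.16, 20.2 and 16.9 CPM and 474, 974 and 674 CPM against 229, 352 and 311 CPM. Krt15 and Krt16 were lower, Krt15 of basal cells at 175, 854 and 88.0 CPM against 3786, 3184 and 3199 CPM and Krt16, a keratin of stressed and follicular epithelium, at 49.9, 61.7 and 0 CPM against 490.1, 348 and 114 CPM.

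Among signalling and regulatory genes, Ereg ranked first among the higher genes by the smallest of its 3 ratios. Epiregulin, its product, is a ligand of the EGF receptor, and the gene stood at 1921, 1915 and 1525 CPM in Lor+ cells, against 2.15, 3.11 and 3.94 CPM in spinous cells (log2 ratios 9.71, 9.10 and 8.56). In the deep cells it ranged over 0 to 9196 CPM with a UMI in 9 of 12. Of 32 transcription factors measured 2 were higher, Prdm1 (2.50 ± 0.16), known in mouse epidermis for the step from granular to cornified cells, and Barx2 (2.02 ± 0.46), while Trp63, the regulator of basal identity, was lower at 0, 123 and 73.3 CPM against 197, 256 and 205 CPM. Under TMM factors neither Prdm1 nor Barx2 kept its call and 3 factors were lower. Klf4 and Grhl3, factors of barrier formation in mouse, were not called. None of 9 Notch pathway genes was called. Over all genes 2.23% were higher and 1% lower, so 0 of 9 says little about the pathway. Notch1 stood at 0, 114 and 0 CPM in Lor+ cells, against 79.1, 176 and 124 CPM in spinous cells. Il1f5, which encodes an antagonist of the IL-36 receptor, was the 1 of 10 cytokine and antimicrobial genes called (3.65 ± 1.15).

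Among the calcium-binding genes, the calmodulin-like genes Calm4 and Calml3 were higher, and 2 genes of the S100 family were lower, S100a10 at 49.9, 261 and 103 CPM against 705, 569.6 and 571 CPM and S100a11 at 175, 258 and 586 CPM against 1981, 1253 and 1491 CPM. Of 10 genes of the Ly6 and uPAR family, small secreted or membrane-anchored proteins, Slurp1, Lypd5 and Ly6e were higher. Slurp1 stood at 1971, 537 and 147 CPM against 4.93, 32.6 and 18.8 CPM. Of 13 dissociation stress genes 1 was called, beside 2.23% higher and 1% lower over all genes. It was the chaperone gene Hspb1, at 16914, 9527 and 11758 CPM against 2628, 2755 and 1732 CPM. Cryab, a related small chaperone, had log2 ratios of 6.34, 6.25 and 5.76. At 12 months 28 of its 29 UMIs lay in cell 3. Of 16 organelle clearance genes the autophagy genes Map1lc3a (1.91 ± 0.71) and Gabarapl2 (1.56 ± 0.36) were higher and the peroxiredoxin Prdx6 was lower. None of 9 cell cycle genes was called, which is also near the shares over all genes. No deep cell held a UMI of the proliferation marker Mki67.

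Among the genes lower in Lor+ cells, Mt4, a metallothionein of stratified epithelium, stood at 74.8, 47.2 and 219.9 CPM in Lor+ cells, against 947, 626 and 1459 CPM in spinous cells. Clca3a2 stood at 0, 103 and 381 CPM against 2018, 1845 and 1597 CPM, and the P38 cell held 0 UMIs, where a floor of 3 UMIs would be 74.8 CPM. Npl, a sialic acid lyase, held 0, 1 and 1 UMIs in Lor+ cells, against 162, 113 and 161 CPM in spinous cells. Igfbp3, which binds insulin-like growth factors, held 1, 19 and 0 UMIs against 224, 249 and 199 CPM. In the 8 deep cells of 6 months alone Dsc3, Clca3a2, Igfbp3, Krt16, Npl, Col17a1, Dst and Trp63 were each at 0 UMIs and Mt4 at 3 UMIs, so that their UMIs in the 6 months sum came wholly, or for Mt4 mostly, from the shallower cells. Basal attachment genes took the same direction for 2 of 11 measured, Col17a1 at 0, 129 and 58.6 CPM against 396, 365 and 319 CPM and Dst at 0, 131 and 29.3 CPM against 157, 263 and 283 CPM. The other genes named by the fixed rule were Foxn3, Cd109, 1810037I17Rik and Slc12a2 among the lower ones and Ifitm6, Anxa9, Rnf227, 2200002D01Rik and Slc46a2 among the higher ones.

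**Figure D3:**
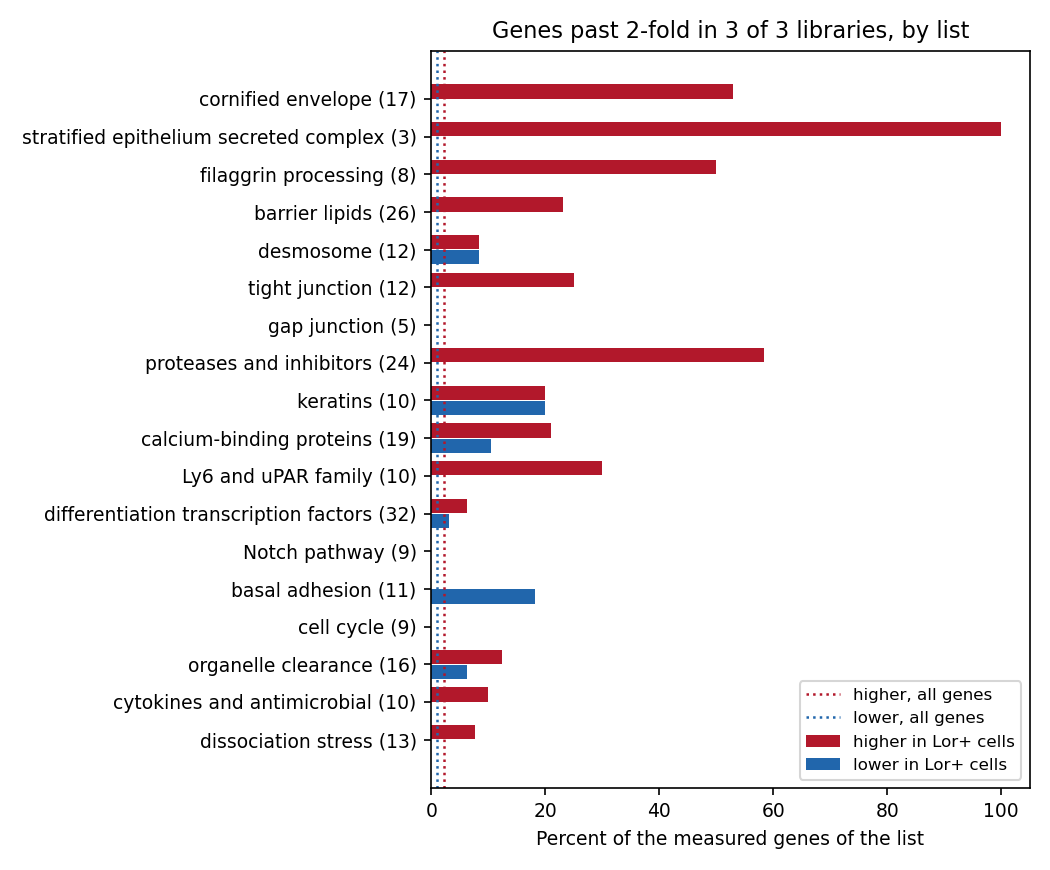
Percent of the measured genes of each list (measured number in brackets) that were at least 2-fold higher (red) or lower (blue) in Lor+ than in spinous cells in 3 of 3 libraries with intervals clear of 0. Dotted lines give the same percent over all 8388 genes, 2.23% higher and 1% lower. The secreted complex, the proteases, the envelope and the filaggrin processing genes lie furthest above. Genes near absent from spinous cells could be measured only through Lor+ cells, which raises the red bars.

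Under TMM factors the higher counts were 12 of 24 proteases and inhibitors, 3 of 8 filaggrin processing genes and 5 of 26 lipid genes. Over all genes they were 144 of 8388. Pcsk6, Cers3, Tjp3, Ctsd, Wfdc5, Krt80 and Map1lc3a no longer met the count. With Lor, Krt1 and Krt10 out of the totals Trp63 and Dst no longer did. With only cells of 10000 UMIs or more in both classes, 190 of 7792 measured genes were higher and 146 lower. Of these, 169 and 78 were among the 187 and 84. Among the lists, 9 of 17 cornified envelope genes, 13 of 22 proteases and inhibitors, 6 of 25 lipid genes and 3 of 8 filaggrin processing genes were then higher. On the lower side there were 4 of 10 keratins, 3 of 32 transcription factors, 3 of 10 basal adhesion genes and 4 of 5 basal markers, against 2, 1, 2 and 2 in the sums over all cells. Without the shared barcodes 175 were higher and 91 lower, 173 and 78 of them in common. Spinous cells, which had no Krt79 limit, held 1083, 1006 and 1014 CPM of Krt79. With the limit on them too, 205 genes were higher and 100 lower, 178 and 81 of them in common. The mean log2 ratio was then 10.27 for Ereg and 10.68 for Cnfn, against 9.12 and 8.35. Of the 28 named genes 4 moved by more than the SD between libraries under this setting, and 0 changed sign.

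The Lor+ cells under 1000 genes at 6 months, 433 of the 444, resembled other shallow cells of their own library more than the deep cells. Summed, they held 253001 UMIs, and were set beside 1406 other kept cells under 1000 genes with 888201 UMIs. Across 3582 genes the log2 CPM of both sums correlated with Pearson's r = 0.935, against r = 0.512 with the sum of the deep Lor+ cells. These points share a library, and genes are not independent replicates. Of the 3582 genes, 76 were at least 2-fold higher in the shallow Lor+ cells (2.12%) and 61 lower (1.7%), or 66 (1.84%) and 59 (1.65%) with intervals clear of 0. Of the 76 higher genes 28 stood higher still in the deep cells, 48 stood lower there, and 16 of these 48 were at 0 CPM. The same shares over all 3582 genes were not counted, so these counts say little by themselves. Krtdap stood at 2810 CPM in shallow Lor+ cells, against 1040 CPM in the other shallow cells, and at 46135 CPM in the deep cells. Wfdc21 stood at 458 CPM against 59.7 CPM and 9540 CPM in the deep cells, and Serpina12 at 83.0 CPM against 19.1 CPM and 2869 CPM. The lower genes included those of other cells, the chemokine genes Ccl4 and Ccl8, the melanocyte genes Dct, Tyrp1 and Mlana, and hair keratin-associated genes such as Krtap7-1. Pinlyp, a phospholipase inhibitor gene, stood at 565 CPM against 1630 CPM.

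**Figure D4:**
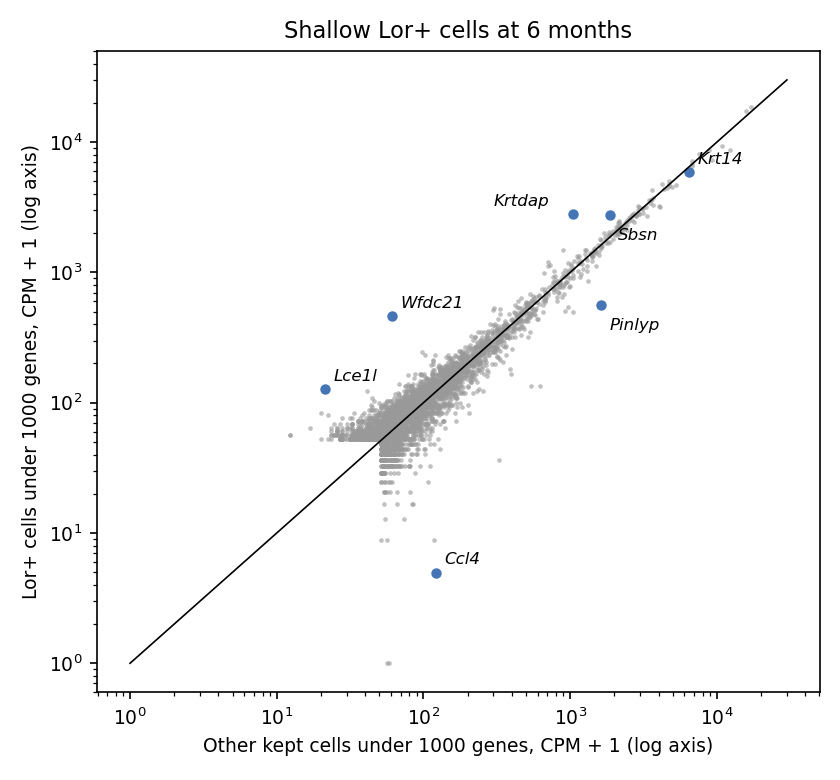
Level of each of 3582 genes (genes of the rule left out) in Lor+ cells under 1000 genes (vertical axis) against other kept cells under 1000 genes (horizontal axis) at 6 months, in CPM plus 1 on log axes, 1 point per gene. Most genes lie along the line of equal level, while Krtdap, Wfdc21 and Lce1l lie above it and Pinlyp and Ccl4 below.

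The sum of the shallow Lor+ cells also held RNA of several cell types. Whether single cells held markers of several types was not counted. Every marker list of another cell type had UMIs in the 436 Lor+ cells under 10000 UMIs at 6 months. Inner root sheath and hair shaft held 3901 CPM, sebaceous gland 1721 CPM, inner bulge niche 1151 CPM, fibroblasts 947 CPM and T cells 62 CPM. In the 8 deep cells of that library these lists held 14, 31, 14, 3 and 0 CPM. Upper hair follicle markers held 5191 CPM in the 436 cells and still 3150 CPM in the 8 deep cells. Beside this, 776 of the 1406 other shallow cells (55.2%) held a Lor UMI, 769 met the 0.1% Lor limit, and Lor stood at 1590 CPM. Of 86 cells of that library with at least 2 UMIs of Cd3d, Cd3e and Cd3g, called T cells, 19 held Lor (22.1%). Their median was 6533 UMIs, and Lor stood at 27.9 CPM, close to the 25.6 CPM of spinous cells. They were not free of keratinocyte RNA, with 10035.5 CPM of basal keratinocyte markers against 2740 CPM of T cell markers. The part of free RNA in the Lor UMIs of shallow cells was not tested. In the sums over spinous cells, the marker lists of other cell types gave 1 higher gene, the bulge marker Sox9, with 9, 118 and 14 UMIs in Lor+ cells against 299, 93 and 351 in spinous cells. Sox9 was not called under TMM factors, and in cells of 10000 UMIs or more its log2 ratio at 6 months was -1.97. Not all shallow cells were alike, since 1 cell of 2823 UMIs held 398 Lor UMIs (14.1%) with 166 of Krtdap, 89 of Crct1 and 86 of Wfdc21.

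The gate itself left out cells with more Lor than any inside it. Cells over the Lor limit with under 0.1% Krt1 and Krt10 fell outside, and 14 of them had 10000 UMIs or more, 1 at P38, 9 at 6 months and 4 at 12 months. Lor reached 16.5% of UMIs in the P38 cell, 22.8% in the highest cell of 6 months and 15.2% in that of 12 months, and 9 of the 14 held at least 5%. In these 9 Sbsn stood at 2053 to 27490 CPM and Lce1m at 1173 to 171659 CPM. A further 6 barcodes of 6 months met every gene limit but held 5000 genes or more, at 73913 to 165222 UMIs.

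Between ages the Lor+ cells give values for 1, 444 and 12 cells, and no test is possible. Jun, an AP-1 subunit that rises on tissue dissociation, was at 0 UMIs in the P38 cell, 1545 CPM at 6 months and 3504 CPM at 12 months, against 1024, 2083 and 2843 CPM in spinous cells of the same libraries. For 12 months over P38, 212 of 1381 genes were at least 2-fold higher (15.4%) and 283 lower (20.5%), and 121 (8.76%) and 189 (13.7%) with intervals clear of 0. Several of the highest ratios came from cell 3 of 12 months, which held 754 of 754 Klk10 UMIs, 367 of 381 Defb6 UMIs and 41 of 41 UMIs of the envelope gene Rptn. Wfdc21 did not rest on it, at 341 UMIs at 12 months against 5 UMIs at P38 (log2 ratio 5.19). Genes high in the P38 cell were Serpinb2, a serpin of differentiating keratinocytes, with 73.3 CPM at 12 months against 9380 CPM at P38, and Sprr2i, with 0 UMIs against 152. Spinous cells showed Serpinb2 in the same order, at 230 CPM against 4471 CPM, and Sprr2i at 0 against 0.923 CPM. Without shared barcodes the counts were 202 and 277.

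For 6 months over P38, 867 of 3028 genes were at least 2-fold higher (28.6%) and 550 lower (18.2%), or 284 (9.38%) and 302 (9.97%) with intervals clear of 0. The 6 months sum mixes deep and shallow cells. Lce1m had 2305 UMIs (4180 CPM) at 6 months and 0 at P38, and Ccl20, a chemokine gene, 1251 UMIs (2269 CPM) and 0. Krt14 stood at 2786 CPM at 6 months against 49.9 CPM at P38, but at only 0 to 118 CPM in the 8 deep cells of 6 months. Serpinb2 was again low, at 143 CPM against 9380 CPM at P38.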

How the data were processed

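Droplet 3′ RNA libraries of mouse back skin were analysed, 1 per age. The deposited matrices hold UMI counts per gene (32285 genes) and barcode, which the authors made with Cell Ranger on mm10 (6.1.2 in the submitters' processing notes and the P38 file header, 6.0.0 in the headers of the 6 and 12 months files). Barcodes with 201 to 4999 genes and under 15% mitochondrial UMIs were kept. Scrublet (scanpy 1.11.5) called 5, 0 and 3 kept cells, so its threshold was not used and removal by score was an alternative.

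UMIs of a class were summed per library and given as CPM. Log2 ratios had 0.5 counts added to each sum. Genes needed at least 10 UMIs over both classes in each library, and 50 CPM in 1 of the ages for ages. Genes at least 2-fold apart in 3 of 3 libraries were counted, and, by a rule added after seeing the data, those whose exact 95% counting interval left out 0. Intervals and the floor of 3 UMIs cover counting error only, and with 1 library per age no p-value was computed. Single-cell depth sets the precision, and the P38 class is 1 cell. Genes were named as the 15 with the largest lowest ratio and the 10 with the most negative highest ratio among those with 100 CPM in the higher class, the list members past 2-fold, the 10 largest and 10 smallest ratios between ages, and the 5 markers. Genes outside this rule (those under 1000 genes per cell, in single deep cells and outside the gate) were chosen after their values were seen. Members and lists (31 lists, 391 of 395 genes matched) were chosen with earlier results of these data known.

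Alternatives were TMM factors (edgeR 4.0.16, R 4.3.3), other limits on cells, UMIs, Lor and Krt79, and equal weight of cells. Others were thinning to 1000 UMIs, doublet removal, and leaving out a library or the shared barcodes. Sums and intervals used scipy 1.17.1 and pandas 2.3.3 under Python 3.11.15, and plots matplotlib 3.10.9. Part of 1 gene list is not reported here.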

Additional observations from a re-analysis of the deposited data

Results flagged for a closer look

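Several listed genes took opposite directions in the libraries when Lor+ cells were set over spinous cells, and for all of them the difference was not tested, since each age has 1 library. Sprr1b, an envelope protein gene, had log2 ratios of 1.40 at P38, -1.36 at 6 months and 1.89 at 12 months. Ehf, an epithelial transcription factor, ran likewise at 1.51, -1.02 and 2.04. Gja1, the gap junction protein connexin 43, had -2.46, 1.63 and -4.35, and S100a6, a calcium-binding protein, -1.69, 2.79 and -1.85. With only cells of 10000 UMIs or more, the 6 months ratio was -3.68 for Gja1 and -2.53 for S100a6. Serpinb2 had 1.07, -4.04 and -1.51. Defb6 had -4.89, 2.35 and 2.66, and at 12 months 367 of its 381 UMIs lay in 1 cell.

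At 6 months 6 barcodes with 5000 genes or more, which the cell filter left out, met the Lor, Krt1 and Krt10 and Krt79 limits. They held 73913 to 165222 UMIs and 0.205% to 8.65% Lor.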

How the results depend on the processing

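The number of Lor+ cells at 6 months (444) was 76 with at least 0.5% Lor, 99 with at least 3 Lor UMIs, 745 with no Krt79 limit, 11 with at least 1000 genes, 30 after thinning to 1000 UMIs and 8 with at least 10000 UMIs. At 12 months (12) it was 4 with at least 0.5% Lor, 19 with no Krt79 limit, 3 with at least 1000 genes, 3 with at least 10000 UMIs and 4 without shared barcodes. At P38 (1) it was 3 with no Krt79 limit and 5 after thinning.

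Against spinous cells, 437 genes were higher and 213 lower by fold alone. The lower count was 361 under TMM factors, 574 with at least 1000 genes, 460 with at least 3 Lor UMIs and 580 with at least 10000 UMIs. The higher count was 1660 with no filter on low counts and 274 with at least 30 UMIs. With counting intervals, 84 were lower, against 157, 145, 129 and 146 under TMM, 1000 genes, 3 Lor UMIs and 10000 UMIs. With equal weight of cells the counts were 191 and 99 by fold and 64 and 23 with intervals. Leaving out 1 library, so that 2 of 2 had to pass, gave 689 to 1127 higher and 398 to 616 lower by fold, and 245 to 313 and 128 to 150 with intervals. Without the 6 months library, the fold counts were 1127 and 616.

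Between ages with no filter on low values, 1575 genes were higher and 1405 lower for 12 months over P38, and 1827 and 4300 for 6 months over P38. With equal weight of cells 457 were lower for 12 months over P38. Of the ratios of the 28 named genes under settings other than the gene filters, which cannot change them, 299 moved by less than the SD between libraries, 37 by more and 0 changed sign. The 299 include the settings that left out 1 library. Those could not move a mean of 3 libraries past the SD, nor change a sign that all 3 share. With equal weight of cells 16 of the 28 moved by more. No paired analysis was possible because each age has 1 library. Depth limits the P38 values most, where 3 UMIs are 74.8 CPM.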
